A study of Homo sapiens with 4 samples.

Results

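The TEAD transcription factors and the Hippo pathway around them were followed at the level of single exons in a breast cancer cell line and its lung-metastatic derivative. The set held 10 genes: TEAD1, TEAD2, TEAD3 and TEAD4, the coactivators YAP1 and WWTR1 (TAZ), and the upstream genes NF2, LATS1, STK3 and AMOTL1. Skipped-exon events were taken where the middle exon lay on the same strand inside one of these genes in GENCODE release 29 (build hg38). This gave 30 of the 44447 listed events and 27 of the 37641 listed exons, in 9 of the 10 genes, and TEAD3 had no listed event. Of the 27 exons, 17 in 8 genes carried enough reads to be compared, out of 14109 in the series. The other 10 are given by their reads below. They comprise 4 with under 10 informative reads in a library, 5 without an exclusion read in either library, and 1 without an inclusion read.

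The parental line was MDA-MB-231 (called MDA-Parental in the series), an established human breast cancer line, and MDA-LM2 is a highly lung-metastatic population derived from it. Both were untreated and grown in the same DMEM-based medium with serum. Total RNA of 2 samples per line was sequenced, 4 in all, and the labels do not say whether the 2 came from separate cultures. The deposited tables hold 1 set of values per line, so no replicate error can be given, and no p-value is printed. Below, the library of a line means the reads behind that set. Whether they pool the 2 samples is not stated. Intervals from read counts, here and below, cover counting error only.

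The Hippo pathway is a kinase cascade that restrains growth. STK3 (MST2) and its relatives activate the LATS kinases, which phosphorylate YAP and TAZ and keep them out of the nucleus. Unphosphorylated YAP and TAZ enter the nucleus and bind TEAD proteins, which hold the DNA-binding domain that the coactivators lack. NF2 (merlin) and the angiomotins act upstream at the cell cortex and at junctions.

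Each event has 4 classes of reads: those that fit the isoform with the exon (inclusion), those that fit the isoform without it (exclusion), those that fit both, and those that fit neither. The inclusion level runs from 0 to 1 and is the deposited posterior mean with its deposited interval. An exon was called where the levels differed by at least 0.2 and the Bayes factor, the odds of a difference over none in the authors' deposited table, reached 10. By this rule 1 of the 17 exons was higher in LM2, against a background of 0.921% of all tested exons, and 0 were lower, against 0.326%. The called exon is the 153-nt exon of TEAD1. With 17 exons, 1 call is the lowest count above 0, and the count says nothing about the set as a whole. The median difference of the 17 was 0.03, and that of all tested exons was 0, with quartiles of −0.02 and 0.03. The other 16 exons differed by between −0.11 and 0.21, and their largest Bayes factor was 1.44. Counted from the reads, the odds ratio of inclusion to exclusion had a 95% interval above 1 in 1 of 17 exons (TEAD1, 153 nt), beside 3.17% of all exons. It lay below 1 in 1 of 17 (AMOTL1, 150 nt), beside 3.04%.

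**Figure D1:**
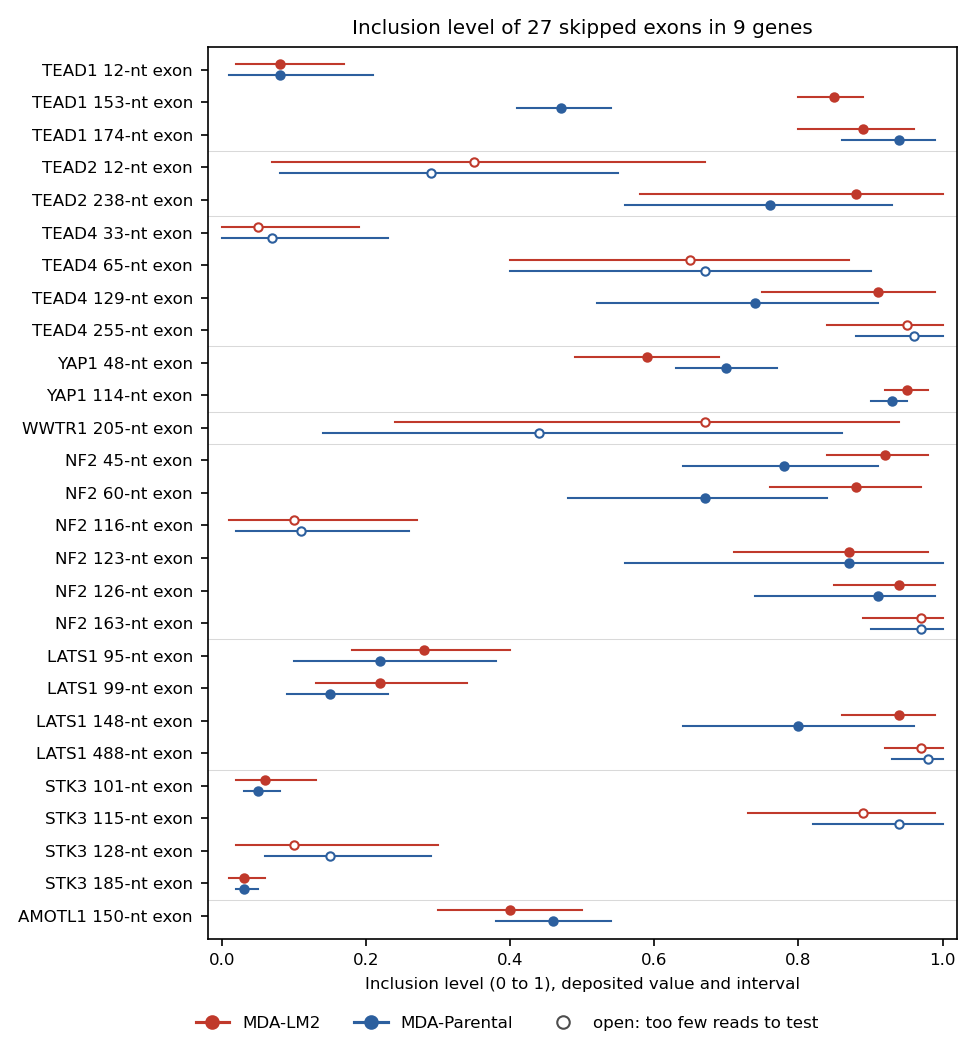
Deposited inclusion level (0 to 1, x axis) of the 27 skipped exons in 9 genes, with MDA-LM2 in red and MDA-Parental in blue. Bars are the deposited intervals, and open points mark the 10 exons that could not be compared. The intervals of the 2 lines are apart in 1 exon, the 153-nt exon of TEAD1 (0.85 against 0.47). The share of all exons with intervals apart was not computed, so this count has no background beside it.

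TEAD1 had 3 listed exons, and they did not move together. The 153-nt exon lies in the 5′ untranslated region of an annotated TEAD1 transcript (chromosome 11, 12675409 to 12675561, plus strand). It follows an intron of 574 nt and precedes one of 88617 nt, and another transcript skips it. Its deposited level was 0.85 (0.80 to 0.89) in LM2 and 0.47 (0.41 to 0.54) in the parental line, and the intervals do not overlap. The inclusion and exclusion reads were 459 and 29 in LM2 and 216 and 30 in parental cells. The level counted from these reads alone was 0.888 in LM2 and 0.783 in parental cells, a difference of 0.105 where the deposited levels gave 0.38. The ratio of the odds of inclusion to exclusion was 2.20 (95% interval 1.24 to 3.90).

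The read classes of this TEAD1 event show which reads differed. Reads were scaled to 1000000 of the reads that fit an isoform, summed over the listed events of each line (RPM). A read that falls in several events counts in each. Inclusion reads were 26.4 RPM in LM2 and 9.95 in parental cells, a ratio of 2.66 (2.26 to 3.14). Exclusion reads were 1.67 and 1.38 RPM, with a ratio of 1.21 (0.700 to 2.08) whose interval holds 1. Reads that fit both isoforms numbered 756 and 1055, a ratio of 0.896 (0.815 to 0.985). The LM2 library thus had more reads with the exon on this scale, while its exclusion reads did not differ beyond counting error. A further 2 annotated transcripts have a first exon of 59 nt that begins inside the 153-nt exon, at 12675503, and ends where it ends. Reads from transcripts that start there and reads from the whole exon share bases and the downstream junction, and the deposited classes do not separate them.

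The remaining TEAD1 exons are coding and had like levels in the 2 libraries. A 12-nt exon (12878889 to 12878900), which adds 4 codons in 1 annotated transcript, was mostly skipped. Its level was 0.08 (0.02 to 0.17) in LM2 and 0.08 (0.01 to 0.21) in the parental line, from 2 inclusion and 29 exclusion reads against 1 and 16. A 174-nt exon (12901940 to 12902113) of 58 codons was mostly included, at 0.89 (0.80 to 0.96) and 0.94 (0.86 to 0.99). It had 364 inclusion and 2 exclusion reads in LM2 and 514 and 1 in parental cells. TEAD2 also has a 12-nt exon (chromosome 19, 49355959 to 49355970, minus strand). The pair of 12-nt exons is shown because both family members carry an exon of this length, and capitals mark the bases that are the same at the same position, 5 of 12. All sequences here were read from GENCODE release 29 transcripts, 5′ to 3′.
TEAD1 12-nt exon: GtaacaAgCaTG
TEAD2 12-nt exon: GctctgAaCgTG
The TEAD2 exon was covered by 1 inclusion and 4 exclusion reads in each library, too few to compare. Its deposited levels were 0.35 (0.07 to 0.67) in LM2 and 0.29 (0.08 to 0.55) in the parental line.

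The other exons of TEAD2 and TEAD4 did not meet the call rule, at low depth. A 238-nt, partly coding exon of TEAD2 (49359844 to 49360081) was at 0.88 (0.58 to 1.00) in LM2 and 0.76 (0.56 to 0.93) in the parental line. It had 17 inclusion and 0 exclusion reads against 30 and 2, and a count of 0 allows up to 17.6% of exclusion reads in LM2. TEAD4 had 4 exons on chromosome 12, plus strand, of which the 129-nt coding exon (3017398 to 3017526) could be compared. This exon was at 0.91 (0.75 to 0.99) in LM2 and 0.74 (0.52 to 0.91) in the parental line, with 56 inclusion and 0 exclusion reads against 37 and 2. The limit on exclusion in LM2 was 5.36%, and 2 of 39 informative parental reads (5.13%) were exclusion reads, so the difference was not detectable at this depth. A 33-nt exon (3017063 to 3017095) upstream of it adds 11 codons in 1 annotated transcript, and no inclusion read was found in 17 and 11 informative reads. It is shown as the listed TEAD exon that was without an inclusion read in both libraries.
TEAD4 33-nt exon: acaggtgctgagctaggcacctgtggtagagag
The best covered TEAD4 exon is a 255-nt exon (2994738 to 2994992) with both coding and untranslated bases, which 1 annotated transcript skips. It had 110 inclusion reads in LM2 and 112 in parental cells and 0 exclusion reads in both. These counts allow up to 2.73% and 2.68% of exclusion reads. Its deposited level was 0.95 (0.84 to 1.00) in LM2 and 0.96 (0.88 to 1.00) in the parental line. A 65-nt exon (3011004 to 3011068) had 14 and 16 inclusion reads and also 0 exclusion reads.

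YAP1 had 2 cassette exons, and both encode parts of the protein that define its known isoforms. The 114-nt exon (chromosome 11, 102186018 to 102186131, plus strand) carries 38 codons of the second WW domain, a module that binds proline-rich partners. The 48-nt exon (102209517 to 102209564) adds 16 codons within the leucine zipper region. The upstream exon of the 48-nt exon ends at 1 of 2 donor sites that are 12 nt apart, and the stretch between them (102206075 to 102206086) is retained when the longer one is used. These 3 sequences are shown because each is a stretch that YAP1 transcripts carry or lack, counted below as separate events.
YAP1 114-nt exon: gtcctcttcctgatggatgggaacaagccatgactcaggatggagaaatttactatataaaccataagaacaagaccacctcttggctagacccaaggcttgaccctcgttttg
YAP1 48-nt exon: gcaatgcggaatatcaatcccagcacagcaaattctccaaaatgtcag
YAP1 donor extension: gtgaggccacag
The 114-nt exon was at 0.95 (0.92 to 0.98) in LM2, and in parental cells it was at 0.93 (0.90 to 0.95). It had 429 inclusion and 9 exclusion reads against 735 and 27, with an odds ratio of 1.75 (0.790 to 4.27). The isoform with the second WW domain thus made up most YAP1 reads over this exon in both libraries, and the interval of the odds ratio holds 1.

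The 48-nt YAP1 exon was listed in 2 events, 1 for each donor site of the upstream exon, and their deposited levels differed. From the shorter upstream exon its level was 0.59 (0.49 to 0.69) in LM2 and 0.70 (0.63 to 0.77) in the parental line. This event had 70 inclusion and 25 exclusion reads in LM2 and 187 and 47 in parental cells, an odds ratio of 0.705 (0.391 to 1.29). Its Bayes factor was 0.74 in the authors' deposited table. From the longer upstream exon the level was 0.76 (0.65 to 0.87) and 0.83 (0.76 to 0.89), from 62 and 7 reads against 167 and 18. Both events were lower in LM2 by deposited level, and neither pair of intervals is apart. The 2 events have the same middle exon, so they share inclusion reads and are not separate evidence. Their inclusion reads were similar in number, while exclusion reads were fewer with the longer upstream exon. Whether use of the exon depends on the donor site was not tested. Exclusion reads join the upstream exon to the exon after the 48-nt exon, so they do tell the donor sites apart. Of these, 25 of 32 in LM2 (78.1%) and 47 of 65 in parental cells (72.3%) came from the shorter upstream exon.

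WWTR1, which encodes TAZ, had 1 listed exon of 205 nt (chromosome 3, 149703124 to 149703328, minus strand), annotated in a non-coding transcript. It carried 3 inclusion reads in LM2 and 2 in parental cells and 0 exclusion reads. The exon use of TAZ could therefore not be compared.

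NF2, the gene of merlin, had 6 exons on chromosome 22 (plus strand), and the alternative exon near its 3′ end had the largest read-based differences among them. This exon, of 45 nt (29683020 to 29683064), holds the stop codon of a merlin isoform with its own short C-terminal end. Its 33 coding bases (29683020 to 29683052) are shown because they are what the exon adds to the protein.
NF2 45-nt exon, coding part: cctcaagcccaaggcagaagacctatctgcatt
The 45-nt exon was at 0.92 (0.84 to 0.98) in LM2 and 0.78 (0.64 to 0.91) in the parental line, with 51 inclusion and 3 exclusion reads against 38 and 8. The odds ratio was 3.53 (0.782 to 22.1). A 60-nt version starts at the same splice site and ends at 29683079, and it shares its exclusion reads and part of its inclusion reads with the 45-nt version. It was at 0.88 (0.76 to 0.97) in LM2 and 0.67 (0.48 to 0.84) in the parental line, with an odds ratio of 4.09 (0.867 to 26.4). In the authors' deposited table its difference of 0.21 passed the size limit, and its Bayes factor of 1.44 did not pass the other limit. Both versions were higher in LM2 by level and by reads, on 3 and 8 exclusion reads, and their intervals overlap between the lines.

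The other NF2 exons were close between the libraries. The coding 126-nt exon (29636751 to 29636876) was at 0.94 (0.85 to 0.99) in LM2 and 0.91 (0.74 to 0.99) in the parental line. The coding 123-nt exon (29639090 to 29639212) was at 0.87 (0.71 to 0.98) and 0.87 (0.56 to 1.00). A coding 163-nt exon (29681439 to 29681601) had 63 and 67 inclusion reads and 0 exclusion reads. Its limit on the share of reads of the exclusion class was 4.76% (LM2) and 4.48% (parental), which is not a limit on the level. A 116-nt exon that is not in the annotation (29628658 to 29628773) was near 0.1 in both, from 1 inclusion and 13 exclusion reads against 1 and 7.

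AMOTL1 encodes angiomotin-like 1, a junction scaffold that binds YAP and TAZ. Its 1 listed exon, of 150 nt and 50 codons (chromosome 11, 94795011 to 94795160, plus strand), was lower in LM2 by reads and close between the libraries by deposited level. It is printed because it had the lowest read-based difference of the 17 exons.
AMOTL1 150-nt exon: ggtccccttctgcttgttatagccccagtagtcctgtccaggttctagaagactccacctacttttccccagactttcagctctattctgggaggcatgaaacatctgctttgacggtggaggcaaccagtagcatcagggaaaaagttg
The deposited level was 0.40 (0.30 to 0.50) in LM2 and 0.46 (0.38 to 0.54) in the parental line, and the intervals overlap. The inclusion and exclusion reads were 57 and 8 in LM2 and 131 and 1 in parental cells. From these reads alone the level was 0.781 and 0.985, and the odds ratio was 0.0552 (0.00122 to 0.427). Exclusion reads rest on 1 parental read, and their RPM ratio was 10.0 with an interval of 1.34 to 444. Inclusion reads had a ratio of 0.544 (0.391 to 0.748), and reads that fit both isoforms, 944 and 2055, had one of 0.574 (0.531 to 0.621). Both isoforms fit 93.6% of the reads fitting an isoform in LM2 and 94.0% in parental cells, so few reads bear on the exon itself.

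**Figure D2:**
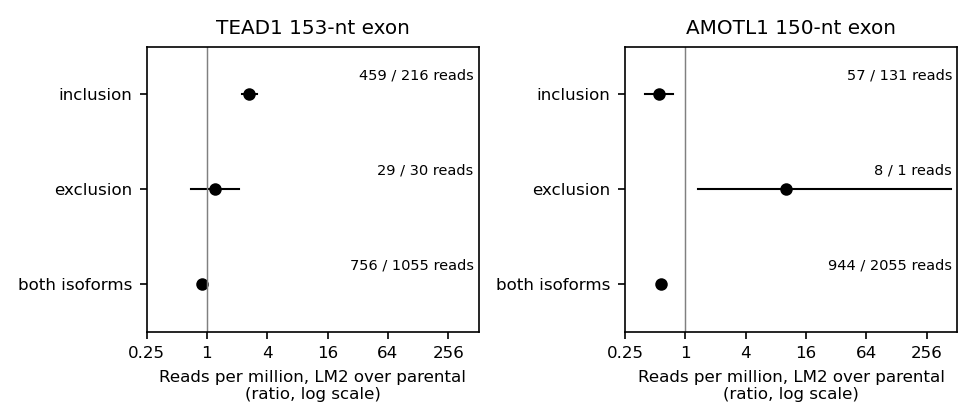
Ratio of reads (RPM) between MDA-LM2 and MDA-Parental (x axis, log scale) for each read class of 2 exons, with exact 95% intervals and the reads of each library (LM2 / parental) at the right. Inclusion reads of the TEAD1 exon are higher in LM2 (2.66), and those of the AMOTL1 exon are lower (0.544) beside a ratio of 10.0 for exclusion reads that rests on 1 parental read.

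LATS1, a kinase that phosphorylates YAP and TAZ, had 4 listed exons on chromosome 6, minus strand, and 3 could be compared. A 99-nt exon that is not in the annotation (149669022 to 149669120) was at 0.22 (0.13 to 0.34) in LM2 and 0.15 (0.09 to 0.23) in the parental line. It had 13 inclusion and 16 exclusion reads against 11 and 25, an odds ratio of 1.83 (0.592 to 5.79). A 95-nt exon found in transcripts marked for nonsense-mediated decay (149697092 to 149697186) was at 0.28 (0.18 to 0.40) and 0.22 (0.10 to 0.38). Its reads, 20 and 24 against 10 and 9, gave an odds ratio of 0.753 (0.221 to 2.53), so level and reads point in opposite directions. The 148-nt coding exon (149695074 to 149695221), present in 7 annotated transcripts, was at 0.94 (0.86 to 0.99) and 0.80 (0.64 to 0.96). Yet it had 1 exclusion read beside 138 inclusion reads in LM2 and 0 beside 95 in parental cells, and its read-based difference was −0.0143. The 488-nt exon (149701779 to 149702266) had 192 and 191 inclusion reads and 0 exclusion reads, which allows up to 1.56% and 1.57% of exclusion reads. Its deposited level was 0.97 (0.92 to 1.00) in LM2 and 0.98 (0.93 to 1.00) in the parental line.

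STK3, the MST2 kinase, had 4 listed exons on chromosome 8, minus strand, and 2 could be compared. The 185-nt exon (98594861 to 98595045), annotated in a non-coding transcript, was at 0.03 in both libraries (0.01 to 0.06 and 0.02 to 0.05), from 4 inclusion and 47 exclusion reads against 16 and 119. The 101-nt exon (98638460 to 98638560), also in a non-coding transcript, was at 0.06 (0.02 to 0.13) and 0.05 (0.03 to 0.08). The coding 115-nt exon (98749276 to 98749390) had 50 inclusion reads in LM2 and 117 in parental cells and 0 exclusion reads in both. A 128-nt exon of the 5′ untranslated region (98889775 to 98889902) had 4 informative reads in LM2 and was not compared.

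**Figure D3:**
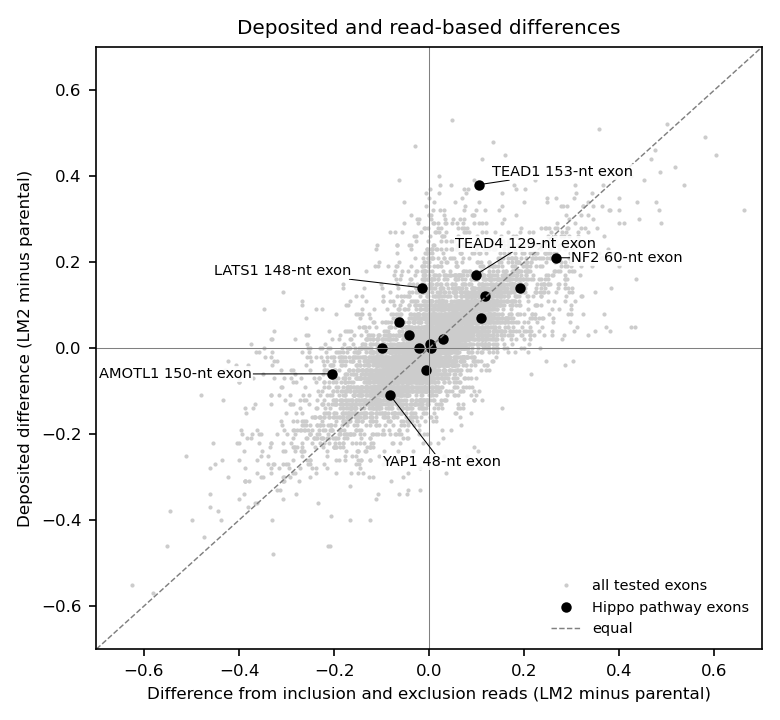
Deposited difference in inclusion level (y axis, LM2 minus parental) against the difference computed from inclusion and exclusion reads (x axis) for the 17 Hippo pathway exons (black) and all 14109 tested exons (grey). The TEAD1 153-nt exon lies above the line of equal values (0.38 against 0.105), and the AMOTL1 150-nt exon also lies above it, with both of its differences below 0 (−0.06 against −0.204).

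Deposited and read-based differences were both above 0 in 8 of the 17 exons and both below 0 in 3. They had opposite signs in 3, and the deposited difference was 0 in the other 3. Exclusion reads were the thin class: 7 of the 17 exons had under 10 of them over both libraries together. The median number of informative reads was 51 in LM2 and 46 in parental cells, against 74 and 92 over all tested exons. The deposited intervals were 0.20 wide in LM2 and 0.23 in parental cells at the median.

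The 27 exons were 12 to 488 nt long with a median of 123 nt, and the median over all listed exons was 115 nt. Their length was a multiple of 3, which keeps the reading frame in coding exons, in 15 of 27 (55.6%) and in 40.8% of all listed exons. By annotation 14 were coding, 5 were partly coding and 2 lay in 5′ untranslated regions. A further 3 were found in non-coding transcripts, 1 in transcripts marked for decay, and 2 were not annotated. Levels were at least 0.85 in both libraries in 8 exons, at most 0.15 in both in 6, and between these in at least 1 library in 13.

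The exons of other genes whose levels were nearest to those of the TEAD1 153-nt exon were sought among the 10982 tested exons where both libraries had at least 20 informative reads. Nearness was the Euclidean distance over the deposited levels of the 2 lines. Among the nearest were a 161-nt exon of FIGNL1 (0.83 in LM2 and 0.48 in parental cells) and a 95-nt exon of RPS3 (0.87 and 0.50). In both the exclusion reads were few: 1 and 4 for FIGNL1, and 4 and 2 for RPS3.

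The reads over the events also give a partial view of how much RNA of each gene was sampled, limited to the exons of the event. Event reads are those that fit at least 1 isoform, in RPM, and a gene was represented by its event with most of them. In cultures sequenced in bulk, fewer cells with a transcript and less of it per cell cannot be told apart. Over all 10137 genes the median ratio of LM2 to parental was 0.906, a shift of −0.14 on the log2 scale, and values below should be read beside it. A ratio of 0.5 or less whose interval excludes 1 was found in 8.43% of all genes and in 1 of 9 members, STK3. A ratio of 2 or more of that kind was found in 3.21% of all genes and in 0 of 9 members. The interval lay below 1 for YAP1, STK3 and AMOTL1, above 1 for TEAD1 and NF2, and held 1 for TEAD2, TEAD4, WWTR1 and LATS1. The share of all genes with an interval off 1 was not computed, so this sorting describes the members only. The median ratio of the 9 was 1.03.

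Among the TEAD genes, TEAD1 had 71.6 RPM of event reads in LM2 and 59.9 in parental cells, a ratio of 1.20 (1.11 to 1.29) from 1244 and 1301 reads. That event is the one with the 153-nt exon, so the reads of the called exon enter the ratio. Within it, inclusion reads had a ratio of 2.66 and reads that fit both isoforms one of 0.896 (0.815 to 0.985). The events of the 12-nt and 174-nt exons had ratios of 1.27 and 0.922. By inclusion and exclusion reads alone the best covered TEAD1 event is that of the 174-nt exon, with 366 and 515 such reads, and the ratio is then 0.833. The direction for TEAD1 thus depends on the event that stands for the gene. TEAD4 had 6.51 and 5.34 RPM, a ratio of 1.22 (0.932 to 1.59), and its 4 events ranged from 1.12 to 2.60. In 2 of them the interval lay above 1, those of the 129-nt exon (1.80, 1.17 to 2.78) and of the 33-nt exon (2.60, 1.29 to 5.48). TEAD2 was thinly covered in both libraries, with 17 and 32 reads and a ratio of 0.664 (0.346 to 1.23).

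The coactivator YAP1 was lower in the LM2 library, with 40.2 RPM over its event against 54.3, a ratio of 0.741 (0.674 to 0.815). All 3 of its events had an interval below 1, with ratios of 0.640 to 0.741. Events of a gene can share exons and reads, as those of the 48-nt exon do. Here and in the other genes they are therefore not separate evidence. WWTR1 had 5 and 6 reads, and its ratio of 1.04 has an interval of 0.252 to 4.10. Among the upstream genes NF2 had 35.4 and 26.5 RPM, a ratio of 1.33 (1.19 to 1.50), and 4 of its 8 events had an interval above 1. Those of the 163-nt, 45-nt and 60-nt exons are among them and have the same downstream exon, so they share reads. With inclusion and exclusion reads alone the NF2 ratio was 1.10, below that interval. The other scalings and the median over its events gave 1.27 to 1.47, within it. LATS1 had 104 and 101 RPM, a ratio of 1.03 (0.969 to 1.10), although 3 of its 4 events had an interval above 1. STK3 had 8.75 and 17.6 RPM, a ratio of 0.496 (0.409 to 0.600), and all 4 events had an interval below 1, with ratios of 0.496 to 0.592. Its ratio lies at the 2-fold limit, and scaling to reads of all classes (0.516), to the median gene (0.548) or the median over its events (0.518) ends the 2-fold call. AMOTL1 had 58.1 and 100.7 RPM, a ratio of 0.577 (0.535 to 0.622).

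**Figure D4:**
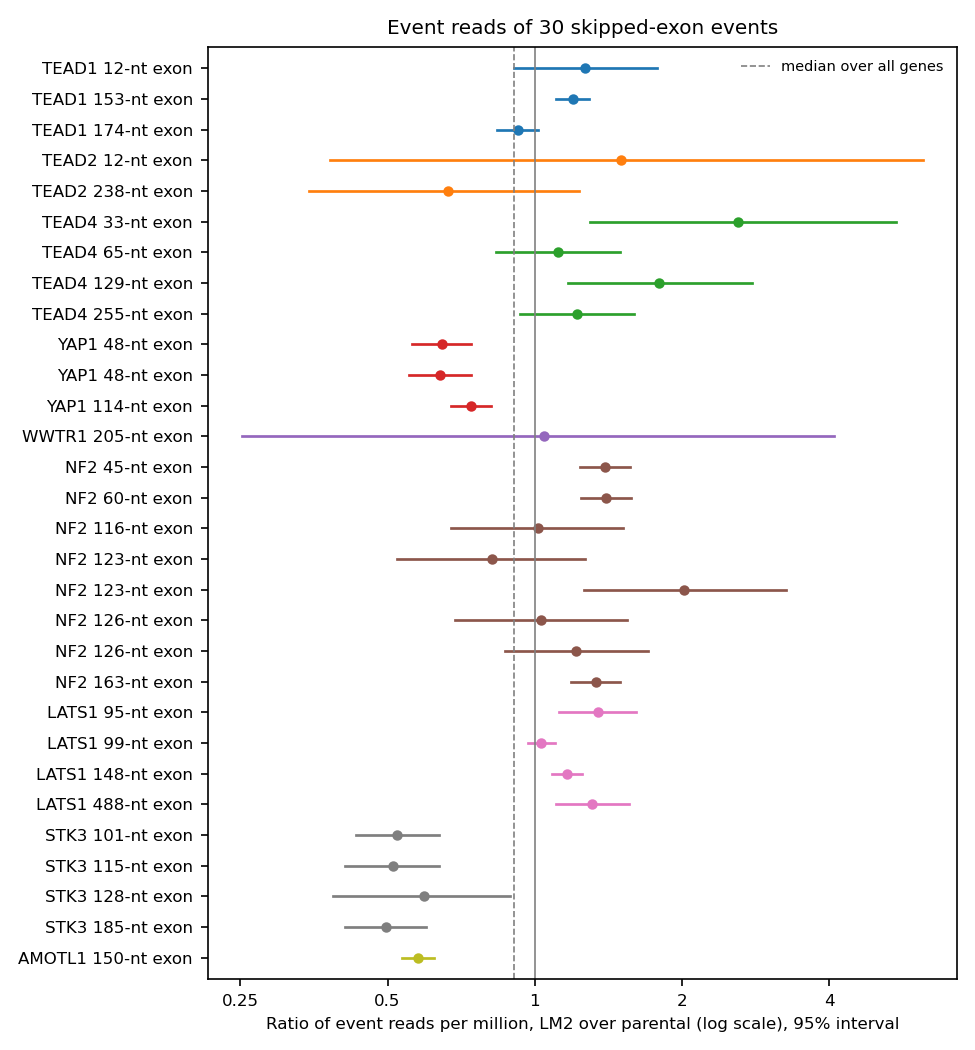
Ratio of event reads (RPM) between MDA-LM2 and MDA-Parental (x axis, log scale) for the 30 events of the 9 genes, coloured by gene, with exact 95% intervals. The solid line marks 1 and the dashed line the median over all genes (0.906). The events of YAP1, STK3 and AMOTL1 lie below both lines, and those of LATS1 lie above both.

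Other genes of the pathway were described in 5 lists, which were chosen with earlier results of these data known. Their counts stand beside 0.921% of all tested exons higher and 0.326% lower, and 3.21% of all genes at least 2-fold higher and 8.43% lower. In the kinase cascade list 0 of 27 tested exons were called, and 1 of 16 measured genes was at least 2-fold lower: RASSF1, a scaffold of the MST kinases, with a ratio of 0.448 (0.282 to 0.692). That count is near the share over all genes. In the list of junction and upstream regulators 0 of 30 exons were called. Of its 19 genes, LLGL2, a polarity protein, was higher at 4.38 (1.37 to 18.3), from 14 and 4 reads. PATJ, a Crumbs-complex scaffold, was lower at 0.390 (0.298 to 0.505), as was the atypical cadherin FAT4 at 0.420 (0.391 to 0.452). In STRIPAK, a phosphatase complex that opposes the MST kinases, 0 of 36 exons and 0 of 13 genes were called, and ratios ran from 0.656 to 1.20. The median ratios of these lists were 0.972, 0.893 and 0.964, each near the median over all genes.

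Of 27 exons in the list of TEAD cofactors 1 was called, an 86-nt exon of SMAD2, a transducer of TGF-beta signals, beside 0.921% of all tested exons higher. It was at 0.59 (0.42 to 0.79) in LM2 and 0.32 (0.24 to 0.42) in the parental line. In the authors' deposited table its Bayes factor was 11.49. Its 29 inclusion and 3 exclusion reads against 44 and 9 gave an odds ratio of 1.96 (0.440 to 12.2), an interval that holds 1. SMAD2 was also the 1 of 14 cofactor genes past 2-fold, at 0.443 (0.400 to 0.489), beside 8.43% of all genes lower. A single call in a list of this size is the lowest count above 0. Of 21 exons in YAP/TAZ target genes 1 was called, a 171-nt exon of ASAP1, an ARF GTPase-activating protein. Its deposited level was 0.64 in LM2 and 0.40 in parental cells, while its read-based level was 0.915 and 0.953, in the opposite direction. Among 26 measured target genes 4 were at least 2-fold lower and 0 higher, beside 8.43% and 3.21% of all genes. RBMS3, an RNA-binding protein, was at 0.272 and the hypoxia-linked NDRG1 at 0.341. The guidance ligand SLIT2 was at 0.362 and the transglutaminase TGM2 at 0.462. The median over target genes was 0.922, beside 0.906 over all genes.

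**Figure D5:**
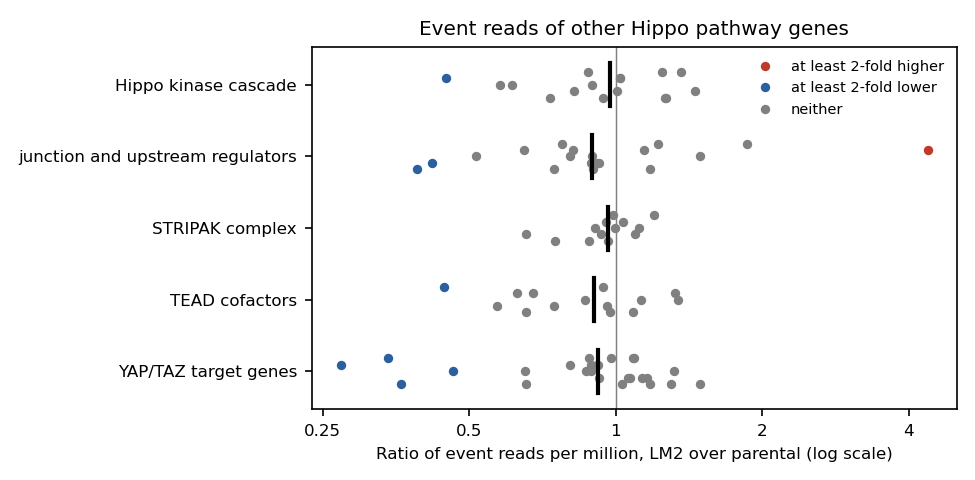
Ratio of event reads (RPM) between MDA-LM2 and MDA-Parental (x axis, log scale) for the measured genes of 5 pathway lists. Each point is a gene, black bars are list medians (0.893 to 0.972), red marks the 1 gene at least 2-fold higher and blue the 8 at least 2-fold lower. Vertical spread within a list carries no value.

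Markers fixed for cell identity were compared on event reads where a gene had a listed event. Of 5 mesenchymal markers CD44 (2203 and 2512 RPM in LM2 and parental cells) and ZEB1 (33.4 and 56.4) were listed, and VIM, CAV1 and MSN had no listed event. Of 5 epithelial markers 3 were listed, with CDH1 at 0.633 and 0.599, ESRP1 at 0.173 and 0.368, and the splicing regulator ESRP2 at 23.1 and 13.3 RPM. Summed over their listed genes, mesenchymal markers were at 2236 and 2568 RPM and epithelial markers at 23.9 and 14.3. Of the blood markers only PTPRC was listed, at 0.288 and 0.0921 RPM from 5 and 2 reads. Of the fibroblast markers only PDGFRB was listed, at 0.345 and 2.35 RPM from 6 and 51 reads. No endothelial marker had a listed event. The part of these values in the exon differences was not tested. Summed over listed events, reads that fit an isoform numbered 17366605 in LM2 and 21716937 in parental cells.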

How the data were processed

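Total RNA was purified on columns with a DNase step and made into ScriptSeq v2 libraries, per the labels' protocols. STAR 2.7 and hg38 are named in the submitters' processing notes. The sources used here do not state the version and settings of MISO or any pooling of the 2 samples per line. The deposited table of each line gives an inclusion level as a fraction from 0 to 1, with an interval of unstated level, and raw read counts in 4 classes per event. The authors' deposited table that sets the lines against each other holds the difference, a score (LM2 level minus parental level), and the Bayes factor, a ratio that is capped in the file. Listed events had at least 20 reads in each table. Read totals were summed over the listed events of each line, 39981 in LM2 and 43626 in parental cells. A read that falls in several events counts in each, so the totals are not library sizes. Reads that fit an isoform numbered 17366605 in LM2 and 21716937 in parental cells, of 68691146 and 89285093 reads of all classes. Of the latter, 74.7% and 75.7% fit neither isoform.

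An exon was tested where both libraries had 10 or more informative (inclusion or exclusion) reads and where each of these classes held at least 1 read over the pair. Its event with most such reads represented it. The read-based level is I/2 over the sum of I/2 and E, for I inclusion and E exclusion reads, and takes no account of exon length. Odds ratios have exact conditional 95% intervals and ratios of event reads exact binomial ones (scipy 1.17.1, pandas 2.3.3, python 3.11.15). A count of 0 was given the limit of 3 reads over the reads counted. That limit bounds the share of exclusion reads, not the inclusion level.

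Genes and lists were chosen with earlier results of these data known. Named exons were the best covered one per gene, any called one, and up to 5 more per gene with 20 or more informative reads in both libraries. The other exons were named after their values were seen. In each list up to 4 called exons and up to 4 genes per direction past 2-fold were named. The exons nearest in level to the called one were sought by rule, and 1 of them is left out here. Alternatives changed the thresholds, the read minimum, the event per exon or gene, the way of counting the level, and the scaling.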

Additional observations from a re-analysis of the deposited data

How the results depend on the processing

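The number of called exons among the 17 stayed at 1 under all 8 alternatives (Bayes factor of at least 5 or 20, difference of at least 0.1 or 0.3, at least 20 informative reads, no read minimum, any event of an exon, exact match to an annotated exon), and it was the TEAD1 153-nt exon each time. Its Bayes factor stood at the cap and its deposited difference at 0.38, and no other exon of the set passed a Bayes factor of 1.44. The changed thresholds could therefore not alter the count. Counted from inclusion and exclusion reads, the difference of the TEAD1 exon was 0.105 in place of 0.38, below the 0.2 of the call rule. The rule was not applied to read-based differences. Of 36 values of exon differences under alternatives, 34 stayed within an interval combined from the deposited bounds of both lines. The 2 outside it were the read-based differences of the TEAD1 153-nt exon and of AMOTL1 (−0.204). Part of the 36 were medians over an exon's events, which repeat the main value for an exon with 1 event. These medians differed from the main value only for the 48-nt YAP1 and 126-nt NF2 exons. The number of genes at least 2-fold lower fell from 1 to 0 with scaling to reads of all classes, with scaling to the median gene, and with the median over a gene's events. It stayed at 1 with inclusion and exclusion reads alone (STK3 at 0.443). Of 36 values of event ratios 26 stayed within the interval and 10 did not, and TEAD1 turned direction (0.833) with inclusion and exclusion reads alone, where the event of the 174-nt exon takes the place of that of the 153-nt exon. TEAD2, whose interval holds 1, was at 1.08 with the median over its events. Called exons in the other pathway genes numbered 2, and 1 with a Bayes factor of at least 20, 0 with a difference of at least 0.3, 3 with any event of an exon and 5 with no read minimum. Genes of these lists past 2-fold numbered 1 to 2 higher and 7 to 8 lower. Apart from that change of event, the cause was not tested. Lengths of mappable positions were not used because the files give no read length. No paired analysis was possible because the files give 1 set of values per line. Exclusion reads limit the precision.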
